A study of Mus musculus with 6 samples.

Results

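Schwann cells are the glia of peripheral nerves, and 8 genes of their myelin sheath and lineage were followed in mouse aorta: Mbp, Pmp22, Pmp2, Mag, Prx, Sox10, Ngfr and Cdh19. They were chosen by symbol, as 8 of the 55401 genes in the count table. Expression was measured by RNA sequencing in 3 aortas labelled IL16-/-ApoE-/- and 3 labelled ApoE-/-. By its label, IL16-/-ApoE-/- lacks interleukin-16, a cytokine that binds CD4, and apolipoprotein E, which clears remnant lipoproteins. By its label, ApoE-/- lacks apolipoprotein E alone, so all samples share the ApoE-/- label. High-fat feeding began at 8 weeks of age in both groups and lasted 24 weeks. The sources used here name neither the strain nor the exons that each allele removes. They also do not say that each numbered sample is another animal. Every p-value therefore reflects the spread among these samples only, and how much of that spread is technical is not known.

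Nerve fibres run in the adventitia and the perivascular fat of the aorta, mostly as sympathetic and sensory axons carried by Schwann cells. Some Schwann cells wrap a single large axon in compact myelin. Others, called non-myelinating or Remak cells, hold several thin axons without myelin and express the neurotrophin receptor Ngfr. Sox10 drives the lineage, and together with Egr2 it switches on the genes of the sheath.

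The libraries held 42861980 to 47208779 counts in IL16-/-ApoE-/- and 65730552 to 85568269 counts in ApoE-/-. Levels are given as CPM, counts scaled to library size, with TMM factors that adjust for library composition. The ApoE-/- libraries varied more, with a biological coefficient of variation of 0.209 in IL16-/-ApoE-/- and 0.590 in ApoE-/-. ApoE-/- 1 stood apart. It had 474 CPM of Xist, the RNA of the inactive X chromosome, against 4.56 to 5.52 CPM in IL16-/-ApoE-/- and 6.21 and 0.497 CPM in ApoE-/- 2 and 3. It had 0.143 CPM of the Y-linked gene Ddx3y, against 70.1 to 75.6 CPM in IL16-/-ApoE-/- and 134 and 136 CPM in ApoE-/- 2 and 3. By these transcripts ApoE-/- 1 has the pattern of a female sample and every other library that of a male sample. The ApoE-/- group thus mixes both patterns, and fits without ApoE-/- 1 hold the male pattern only. Its 8 adipocyte markers summed to 5590 CPM, near the 5190 to 5500 CPM of IL16-/-ApoE-/- and above the 1070 and 1010 CPM of ApoE-/- 2 and 3. Counts of called genes below are therefore given with and without that library. Il16 itself was at 7.93, 12.1 and 12.2 CPM in IL16-/-ApoE-/-, against 28.3, 28.7 and 15.1 CPM in ApoE-/- (log2 fold change -1.16, SE 0.32; edgeR, Benjamini-Hochberg adjusted p = 0.163). Apoe was at 138, 183 and 137 CPM in IL16-/-ApoE-/-, against 45.0, 24.9 and 20.9 CPM in ApoE-/- (2.34, SE 0.33; edgeR adjusted p = 0.0369). Both transcripts were thus counted in all 6 libraries, and their levels check the labels only as far as the deleted exons were counted, which is not known here.

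The question was how the Schwann cell and myelin genes differ when interleukin-16 is also absent. In CPM, the myelin protein Mbp, the receptor Ngfr, the regulator Sox10 and the scaffold Prx had all 3 IL16-/-ApoE-/- libraries above all 3 ApoE-/- libraries. For Sox10 and Prx the margin was narrow. Their differences ranged from a log2 fold change of 2.33 for Ngfr to 0.54 for Prx. Pmp22, Mag and Cdh19 overlapped between the groups, and Pmp2 was almost uncounted. No member passed edgeR's quasi-likelihood test after Benjamini-Hochberg adjustment over 19833 genes at a threshold of 0.05.

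**Figure D1:**
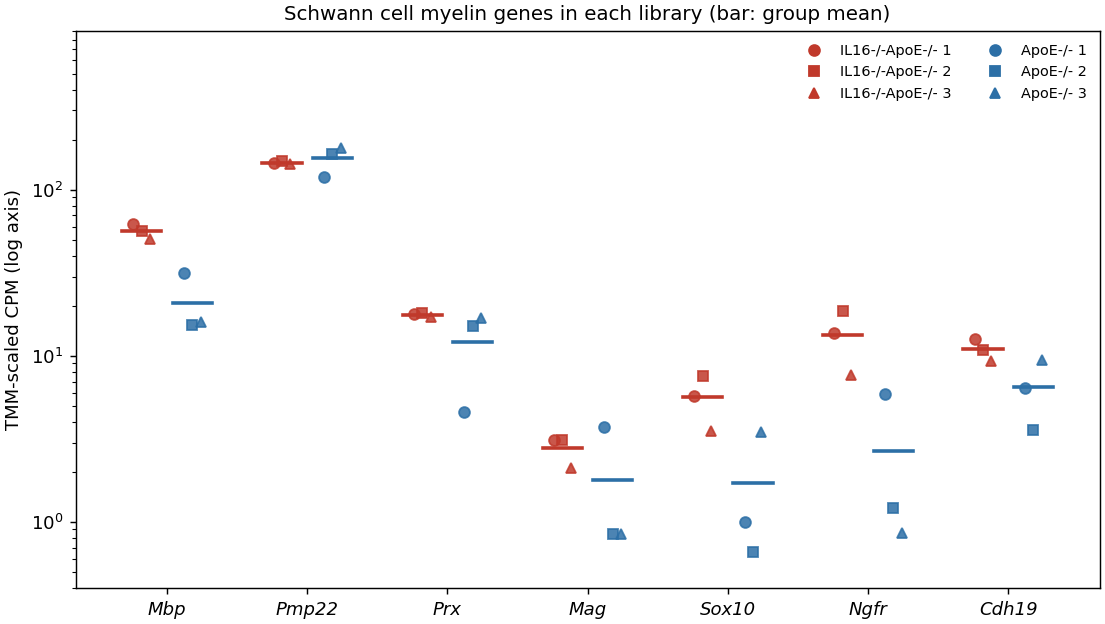
Level of the 7 tested genes in every library, in TMM-scaled CPM on a log axis, with IL16-/-ApoE-/- left of ApoE-/- and the group means as bars. The ApoE-/- points spread widely for Ngfr, Sox10, Mag and Prx, while the IL16-/-ApoE-/- points of Mbp, Pmp22 and Prx lie close together.

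Among the proteins of compact myelin, Mbp binds the cytoplasmic faces of the membrane and holds the layers together. Mbp (ENSMUSG00000041607, GRCm38 chromosome 18, 82475146 to 82585637, forward strand) was at 62.1, 56.3 and 50.5 CPM in IL16-/-ApoE-/-, against 31.3, 15.3 and 15.9 CPM in ApoE-/-. The means were 56.3 ± 5.83 CPM in IL16-/-ApoE-/- and 20.8 ± 9.06 CPM in ApoE-/- (SD, n = 3 each), a 2.71-fold difference, and the lowest IL16-/-ApoE-/- library was above the highest ApoE-/- library. The log2 fold change was 1.44 (SE 0.31), with an adjusted p = 0.103 from edgeR. Without ApoE-/- 1, the ApoE-/- library with the most Mbp, it was 1.85 (SE 0.13; edgeR adjusted p = 0.00145). The processed pseudogene Rpl21-ps8 lies on the opposite strand inside Mbp and was at 4.61, 4.85 and 4.28 CPM in IL16-/-ApoE-/-, against 15.1, 7.49 and 16.9 CPM in ApoE-/- (-1.52; edgeR adjusted p = 0.109). No source used here states how the counting treated strand. The Mbp gene also makes golli transcripts in immune and other cells, which a count per gene does not separate from those of myelin.

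Pmp22 makes a tetraspan protein of compact myelin whose gene dosage underlies common inherited neuropathies, and it is also transcribed in fibroblasts and other non-neural cells. Pmp22 (ENSMUSG00000018217, chromosome 11, 63128982 to 63159547, forward strand) was at 144, 149 and 143 CPM in IL16-/-ApoE-/-, against 120, 164 and 179 CPM in ApoE-/-. The IL16-/-ApoE-/- libraries lay inside the ApoE-/- range, and the log2 fold change was -0.09 (SE 0.20; edgeR adjusted p = 0.853). Without ApoE-/- 3 it was 0.03. Pmp2 (ENSMUSG00000052468, chromosome 3, 10179851 to 10183929, minus strand), a fatty acid-binding protein of peripheral myelin, had 3, 0 and 0 counts in IL16-/-ApoE-/- and no count in ApoE-/-. It was too low to be tested. With 3 counts as the limit that a count of 0 allows, its level could be up to 0.0698 CPM in an IL16-/-ApoE-/- library without a count and 0.0430 CPM in an ApoE-/- library, counting error only. The protein-coding gene Gm37389, which spans Pmp2 on the same strand, had 0, 14 and 12 counts in IL16-/-ApoE-/- and none in ApoE-/-, and reads of the shared stretch cannot be assigned between them.

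Outside compact myelin, Mag is the lectin-like adhesion protein on the inner membrane that faces the axon, in Schwann cells and oligodendrocytes alike. Mag (ENSMUSG00000036634, chromosome 7, 30899176 to 30914873, reverse strand) was at 3.11, 3.11 and 2.12 CPM in IL16-/-ApoE-/-, against 3.70, 0.846 and 0.845 CPM in ApoE-/-. The highest library of all was ApoE-/- 1, and the other ApoE-/- libraries were the lowest. The log2 fold change was 0.63 (SE 0.66; edgeR adjusted p = 0.658), and without ApoE-/- 1 it was 1.71 (SE 0.37; edgeR adjusted p = 0.0221). Prx makes periaxin, a scaffold that ties the outer Schwann cell membrane to the basal lamina through Drp2 and dystroglycan. Prx (ENSMUSG00000053198, chromosome 7, 27499324 to 27520214, forward strand) was at 17.8, 18.0 and 17.2 CPM in IL16-/-ApoE-/-, against 4.56, 15.1 and 16.8 CPM in ApoE-/-. Here ApoE-/- 1 was the low library, and the other ApoE-/- libraries lay just under IL16-/-ApoE-/-. The log2 fold change was 0.54 (SE 0.46; edgeR adjusted p = 0.587) with all libraries and 0.14 without ApoE-/- 1. Gm15541, antisense to Prx, had at most 0.326 CPM in IL16-/-ApoE-/- and 1.42 CPM in ApoE-/-.

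Of the lineage genes, Sox10 encodes the HMG-box factor that Schwann cells need at every stage, and melanocytes and enteric glia express it too. Sox10 (ENSMUSG00000033006, chromosome 15, 79154908 to 79165240, reverse strand) was at 5.76, 7.60 and 3.51 CPM in IL16-/-ApoE-/-, against 1.00, 0.660 and 3.47 CPM in ApoE-/-. The groups met at IL16-/-ApoE-/- 3 and ApoE-/- 3, which differed by less than the counting error of either. The log2 fold change was 1.72 (SE 0.69; edgeR adjusted p = 0.301). Leaving out ApoE-/- 1 gave 1.44, leaving out ApoE-/- 2 gave 1.34, and leaving out ApoE-/- 3 gave 2.75. The last of these held 279 of the 409 ApoE-/- counts. Ngfr is the p75 receptor for neurotrophins, found on non-myelinating and immature Schwann cells and on sympathetic and sensory neurons. Ngfr (ENSMUSG00000000120, chromosome 11, 95568818 to 95587735, reverse strand) was at 13.8, 18.7 and 7.70 CPM in IL16-/-ApoE-/-, against 5.90, 1.22 and 0.858 CPM in ApoE-/-. It had the largest log2 fold change of the 7 tested genes, 2.33 (SE 0.80; edgeR adjusted p = 0.243), and ApoE-/- 1 alone came near the IL16-/-ApoE-/- libraries. Without ApoE-/- 1 the log2 fold change was 3.69 (SE 0.47; edgeR adjusted p = 0.00491). Cdh19, a cadherin of the Schwann cell lineage, overlapped by a narrow margin. Cdh19 (ENSMUSG00000047216, chromosome 1, 110888326 to 110977584, reverse strand) was at 12.7, 10.8 and 9.28 CPM in IL16-/-ApoE-/-, against 6.42, 3.59 and 9.45 CPM in ApoE-/- (0.75, SE 0.37; edgeR adjusted p = 0.380). In samples of whole tissue, a difference in the number of Schwann cells and one in the RNA per Schwann cell cannot be told apart.

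Of the 8 genes, 7 were tested, with 0 past edgeR's adjusted threshold, where 1.14% of all tested genes were called higher and 0.0605% lower in IL16-/-ApoE-/-. At an unadjusted p under 0.05, 3 were higher (Mbp, Ngfr and Sox10), where 8.87% of all genes were higher and 7.03% lower. In 4 of the 7 tested genes all IL16-/-ApoE-/- libraries were above all ApoE-/- libraries, as in 14.9% of all genes, and in none were they all below, as in 11.5% of all genes. For Sox10 and Prx this held by a narrow margin and in CPM only. Scaled to transcript length (TPM, below), Prx was at 5.57 to 5.94 in IL16-/-ApoE-/- and 1.49 to 6.69 in ApoE-/-. Sox10 was at 1.94 to 4.26 TPM in IL16-/-ApoE-/- and 0.497 to 2.04 TPM in ApoE-/-, so both overlapped. The median log2 fold change was 0.75 over the 7 genes and -0.05 over all genes tested. DESeq2 called 2 of them higher, Mbp (adjusted p = 0.00153) and Ngfr (adjusted p = 0.0298), with 6.25% of all genes called higher. limma-voom called 0, with 1.95% of all genes called higher. With sample weights it called 1, which was Mbp (adjusted p = 0.0051), with 9.39% of all genes called higher. When ApoE-/- 1 was left out, edgeR called 3 of them higher (Mbp, Ngfr and Mag). In that comparison 13.1% of all genes were called higher and 12.8% lower. In 5 of the 7 genes all IL16-/-ApoE-/- libraries were above both remaining ApoE-/- libraries, as in 30.6% of all genes. Pmp22 lay below them, at 144, 149 and 143 CPM in IL16-/-ApoE-/- against 164 and 179 CPM in ApoE-/- 2 and 3. The median log2 fold change of the 7 genes was 1.44.

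**Figure D2:**
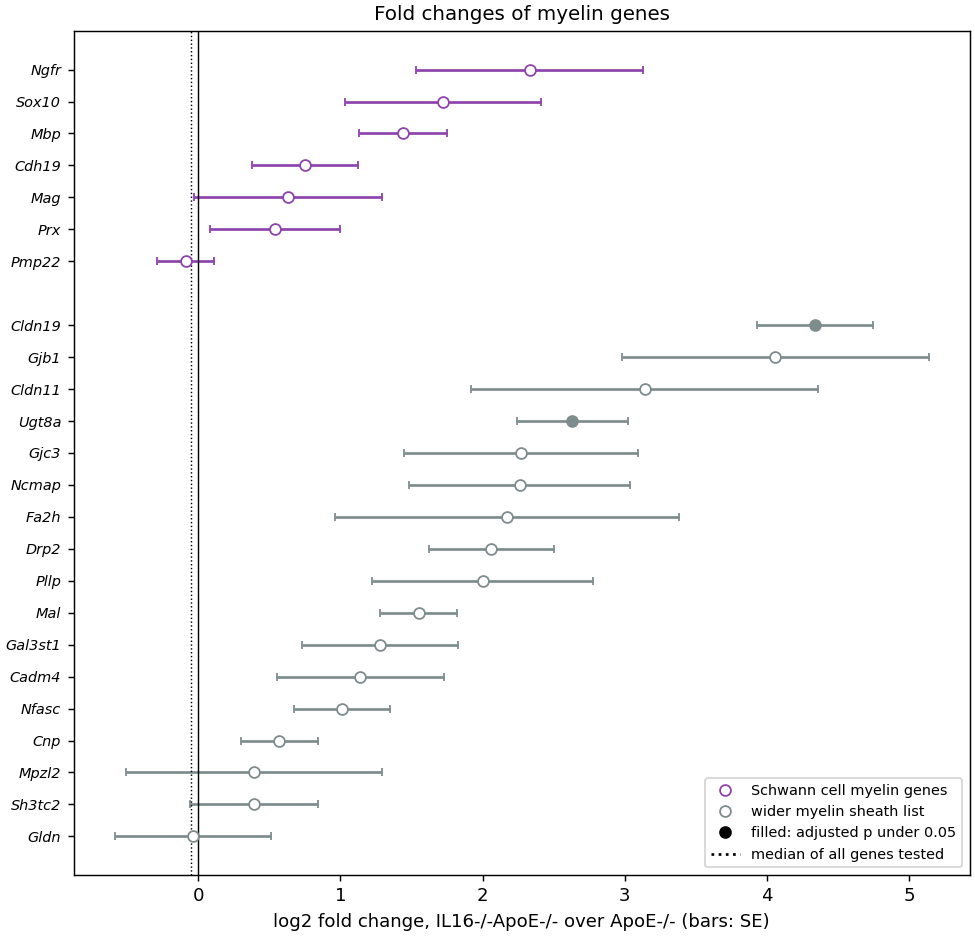
Log2 fold change, IL16-/-ApoE-/- over ApoE-/-, with its SE as bars, of the 7 tested genes and of the 17 genes of the wider myelin sheath list described further on, with filled points past the adjusted threshold and a dotted line at the median of all genes tested, -0.05. None of the 7 points is filled, Ngfr is highest among them at 2.33, and Cldn19 and Ugt8a are filled at 4.34 and 2.63.

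**Figure D3:**
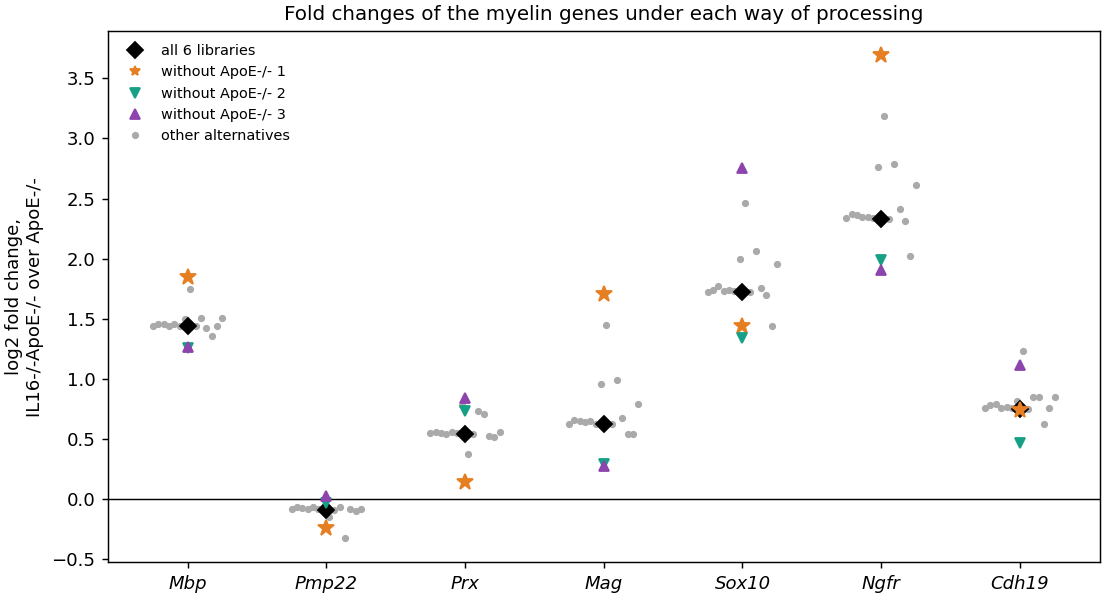
Log2 fold change of the 7 tested genes under each of the 17 alternatives, with the value from all 6 libraries marked. Mbp stays between 1.26 and 1.85 and Pmp22 between -0.32 and 0.03, while Ngfr, Sox10 and Mag move by more than 1 unit.

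Scaled to transcript length as well as library size (TPM), so that genes can be compared, Pmp22 was the most abundant, at 175 ± 6.09 TPM in IL16-/-ApoE-/- and 214 ± 62.9 TPM in ApoE-/- (SD, n = 3 each). Mbp followed at 44.2 ± 4.42 TPM in IL16-/-ApoE-/- and 18.1 ± 5.89 TPM in ApoE-/-. These levels stood apart from each other and from the rest in every library of both groups. In IL16-/-ApoE-/- the order went on with Ngfr at 5.93 ± 2.49 TPM, Prx at 5.75 ± 0.188, Cdh19 at 4.24 ± 0.638, Sox10 at 3.12 ± 1.16 and Mag at 1.75 ± 0.364 TPM, and Pmp2 was last at a mean of 0.0246 TPM. Of those neighbours, Prx and Cdh19 did not overlap, while Ngfr and Prx, Cdh19 and Sox10, and Sox10 and Mag did. In ApoE-/- the order was Prx at 4.67 ± 2.79 TPM, Cdh19 at 2.77 ± 1.03, Ngfr at 1.25 ± 1.19, Mag at 1.21 ± 0.979 and Sox10 at 1.03 ± 0.876 TPM, with each neighbour overlapping the next. Mbp has transcripts of very different length, and with the longest in place of the median it came to 19.5 TPM in IL16-/-ApoE-/- and 8.03 TPM in ApoE-/-.

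Set against Sox10 within the same library, the genes differed in how closely they kept to the lineage regulator. The log2 ratio of Ngfr to Sox10 was 1.27, 1.30 and 1.13 in IL16-/-ApoE-/-, against 2.56, 0.89 and -2.02 in ApoE-/-. The ratio of Mag to Sox10 was -0.89, -1.29 and -0.73 in IL16-/-ApoE-/-, against 1.88, 0.36 and -2.04 in ApoE-/-. Both ratios spread less across the IL16-/-ApoE-/- libraries than across the ApoE-/- libraries, with SDs of 0.09 for Ngfr and 0.29 for Mag in IL16-/-ApoE-/- and 2.31 for Ngfr and 1.98 for Mag in ApoE-/-. The same held for Mbp, Prx, Pmp22 and Cdh19, with SDs of 0.46 to 0.54 in IL16-/-ApoE-/- and 0.65 to 1.49 in ApoE-/-. Sox10 itself, which enters every ratio, ranged from 46 to 279 counts in ApoE-/-. Relative to Sox10, Pmp22 was lower in every IL16-/-ApoE-/- library, at 4.64, 4.30 and 5.35, against 6.90, 7.95 and 5.69 in ApoE-/-. Cdh19 was lower too, at 1.14, 0.51 and 1.40 in IL16-/-ApoE-/-, against 2.68, 2.44 and 1.45 in ApoE-/-. The ratios of Mbp and Prx to Sox10 overlapped between the groups. These ratios describe the libraries and were not tested.

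**Figure D4:**
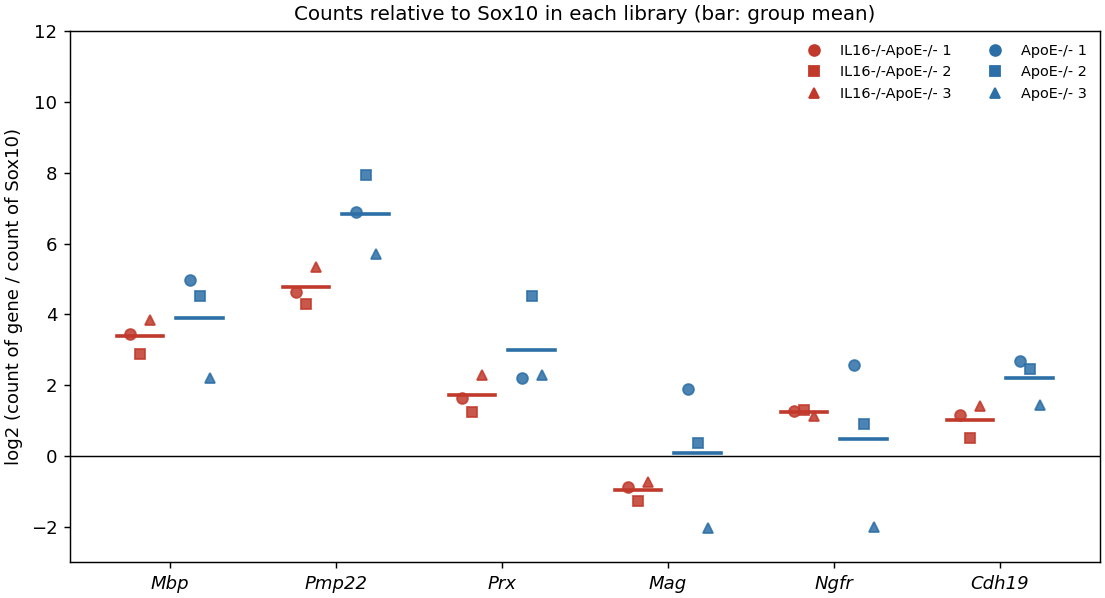
Log2 ratio of each gene's count to that of Sox10 in every library, IL16-/-ApoE-/- left of ApoE-/-. The IL16-/-ApoE-/- points of Ngfr lie between 1.13 and 1.30, the ApoE-/- points between -2.02 and 2.56, and for Pmp22 and Cdh19 all IL16-/-ApoE-/- points lie below all ApoE-/- points.

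Promoter windows, reaching from 250 bases before a gene's start to 50 after it, were taken from RefSeq (GRCm38.p6) for the 4 genes with an entry there, Mag, Prx, Pmp22 and Ngfr. They are shown because SOX proteins bind a short core, searched here as ACAAAG and ACAATG on both strands, with capitals marking a match. The windows are Mag (chr7:30914814-30915113, minus strand), Prx (chr7:27499074-27499373, plus strand), Pmp22 (chr11:63128732-63129031, plus strand, the first of its 4 windows) and Ngfr (chr11:95587649-95587948, minus strand), each read 5′ to 3′ on the gene's strand.
Mag: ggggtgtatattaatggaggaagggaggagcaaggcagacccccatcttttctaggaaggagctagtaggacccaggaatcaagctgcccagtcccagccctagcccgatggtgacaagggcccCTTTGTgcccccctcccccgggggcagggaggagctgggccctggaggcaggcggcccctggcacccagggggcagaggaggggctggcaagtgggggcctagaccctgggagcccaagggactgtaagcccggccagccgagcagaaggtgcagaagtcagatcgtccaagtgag
Prx: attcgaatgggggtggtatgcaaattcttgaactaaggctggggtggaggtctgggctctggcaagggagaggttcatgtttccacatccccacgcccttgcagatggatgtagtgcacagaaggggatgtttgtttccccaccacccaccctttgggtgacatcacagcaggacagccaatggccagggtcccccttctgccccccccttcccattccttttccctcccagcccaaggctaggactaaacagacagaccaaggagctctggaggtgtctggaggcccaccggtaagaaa
Pmp22: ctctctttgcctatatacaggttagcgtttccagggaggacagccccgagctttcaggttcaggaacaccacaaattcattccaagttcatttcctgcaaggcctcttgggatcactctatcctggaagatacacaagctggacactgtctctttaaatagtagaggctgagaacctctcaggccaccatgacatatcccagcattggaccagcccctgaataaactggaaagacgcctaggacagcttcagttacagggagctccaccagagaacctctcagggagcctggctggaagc
Ngfr: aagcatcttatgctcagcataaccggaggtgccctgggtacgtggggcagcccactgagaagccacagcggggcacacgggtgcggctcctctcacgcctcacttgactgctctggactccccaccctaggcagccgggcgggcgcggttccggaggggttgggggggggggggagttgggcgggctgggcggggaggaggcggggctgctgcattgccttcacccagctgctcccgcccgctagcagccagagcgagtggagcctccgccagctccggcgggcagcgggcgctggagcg
Of 9 windows of these genes, 2 overlapping Mag windows held the same ACAAAG, written as CTTTGT on the strand shown, and none held ACAATG. Over 32851 mouse promoter windows of the same length, 28.6% held at least 1 of the 2 cores, 18.7% ACAAAG and 12.6% ACAATG. A match in these letters is a description of the window and not a binding site.

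The wider myelin sheath list, 17 structural proteins, channels and lipid enzymes that do not include the 8 genes, lay mostly above ApoE-/- in IL16-/-ApoE-/-. It was drawn up with earlier results of these data known, as were all lists here, and is no independent evidence of its direction. All 17 were tested, 2 rose and 0 fell (edgeR), and in 13 all IL16-/-ApoE-/- libraries were above all ApoE-/- libraries, where 1.14% of all genes rose and 14.9% lay above. The median log2 fold change was 2.00, against -0.05 over all genes. Its summed level was 126 to 132 CPM in IL16-/-ApoE-/- and 69.2 to 82.7 CPM in ApoE-/-. DESeq2 called 7 higher, against 6.25% of all genes, limma-voom 3, against 1.95%, and limma-voom with sample weights 8, against 9.39%. Without ApoE-/- 1 edgeR called 8, against 13.1% of all genes (median 1.90).

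Cldn19, the claudin that seals the loops of the Schwann cell sheath, rose. Cldn19 (ENSMUSG00000066058, chromosome 4, 119255414 to 119262438, forward strand) was at 2.65, 2.27 and 2.26 CPM in IL16-/-ApoE-/-, against 0.107, 0.129 and 0.112 CPM in ApoE-/- (4.34, SE 0.41; edgeR adjusted p = 0.0149). Ugt8a, which makes the galactosylceramide of myelin, also rose. Ugt8a (ENSMUSG00000032854, chromosome 3, 125865271 to 125938619, reverse strand) was at 2.49, 2.44 and 1.91 CPM in IL16-/-ApoE-/-, against 0.286, 0.416 and 0.398 CPM in ApoE-/- (2.63, SE 0.39; edgeR adjusted p = 0.0391). Both were low in every library, and both are also expressed in kidney tubules. The 8 kidney tubule markers summed to 472 to 525 CPM in IL16-/-ApoE-/- and 0.385 to 1.28 CPM in ApoE-/-, and 7 of them rose, with all libraries and without ApoE-/- 1. Kap, their first, had no count in ApoE-/-. The part of kidney RNA in the Cldn19 and Ugt8a results was not tested. Nor was its part in the rest of the myelin sheath list, with its median and sum, or in the lists that follow. Both calls were lost without any single IL16-/-ApoE-/- library, at adjusted p values of 0.133 to 0.159 for Cldn19 and 0.206 to 0.247 for Ugt8a, and the Ugt8a call also without ApoE-/- 2 (0.0991) or ApoE-/- 3 (0.0665).

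Of 14 markers of non-myelinating and immature Schwann cells, all tested, 1 rose and 0 fell (edgeR), with a median log2 fold change of 0.78. Over all genes, 1.14% rose and 0.0605% fell. The gene that rose was L1cam, an adhesion protein of unmyelinated axons and the Schwann cells that hold them. L1cam (ENSMUSG00000031391, chromosome X, 73853778 to 73896105, reverse strand) was at 17.8, 19.9 and 16.6 CPM in IL16-/-ApoE-/-, against 8.72, 6.80 and 7.28 CPM in ApoE-/- (1.25, SE 0.19; edgeR adjusted p = 0.0420). That call was lost without any IL16-/-ApoE-/- library (adjusted p 0.220 to 0.252), without ApoE-/- 2 (0.115) and without ApoE-/- 3 (0.0729). S100b, a calcium-binding protein of all Schwann cells that adipocytes also make, was at 50.4, 40.4 and 40.5 CPM in IL16-/-ApoE-/-, against 19.0, 9.71 and 6.16 CPM in ApoE-/- (1.91, SE 0.41; edgeR adjusted p = 0.104). For S100b and L1cam the groups did not overlap. Scn7a, named after its values were seen, lay the other way, also without overlap. It was at 53.2, 61.6 and 48.7 CPM in IL16-/-ApoE-/-, against 96.1, 74.8 and 64.6 CPM in ApoE-/- (-0.53; edgeR adjusted p = 0.271). In 7 of the 14 all IL16-/-ApoE-/- libraries were above all ApoE-/- libraries and in 1 below, where 14.9% and 11.5% of all genes were. At an unadjusted p under 0.05, 3 were higher and 1 lower, where 8.87% and 7.03% of all genes were. With ApoE-/- 1 left out, 4 of the 14 markers rose and 1 fell, where 13.1% of all genes rose and 12.8% fell. Those that rose were S100b, Kcna1, L1cam and Fabp7, and Ncam1 fell (-1.41; edgeR adjusted p = 0.00428).

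The transcription factors that act with or against Sox10 lay on both sides of 0. Of 12 tested, 0 rose and 0 fell by edgeR, 1 was higher and 3 were lower at an unadjusted p under 0.05, DESeq2 called 1 higher and 1 lower, limma-voom called 0, and the median log2 fold change was 0.20. Egr2, the master regulator of myelination, was at 7.44, 7.45 and 8.82 CPM in IL16-/-ApoE-/-, against 8.08, 6.61 and 1.95 CPM in ApoE-/-, with overlap. Macrophages also express Egr2. Pou3f1, the factor of promyelinating Schwann cells, was at 1.38, 0.714 and 1.19 CPM in IL16-/-ApoE-/-, against 0.310, 0.201 and 0.423 CPM in ApoE-/- (1.80; edgeR adjusted p = 0.191). Nab1, a corepressor that binds Egr2, was at 61.4, 63.3 and 71.8 CPM in IL16-/-ApoE-/-, against 83.5, 102 and 109 CPM in ApoE-/- (-0.58; edgeR adjusted p = 0.171). Without ApoE-/- 1, 0 rose and 3 fell, which were Nab1 and the broadly expressed factors Tead1 and Yy1. In that comparison 13.1% of all genes rose and 12.8% fell. With all libraries, 8.87% of all genes were higher and 7.03% lower at an unadjusted p under 0.05.

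Of the signals that reach Schwann cells from axons and laminin, 1 of 14 tested genes rose, again L1cam, and 0 fell (edgeR), where 1.14% of all genes rose and 0.0605% fell. Without ApoE-/- 1, 6 rose and 3 fell, where 13.1% of all genes rose and 12.8% fell. Named after their values were seen, those that rose were Erbb3, Lgi4, Adgrg6, Itga6, Itgb4 and L1cam. Those that fell were Ncam1 (-1.41), Lama2 (-0.86) and Erbb2 (-0.56). Nrg1, the axonal growth factor that sets sheath thickness, was at 0.899, 0.945 and 1.05 CPM in IL16-/-ApoE-/-, against 0.501, 0.359 and 0.199 CPM in ApoE-/- (1.44; edgeR adjusted p = 0.263). Among neurotrophins, their receptors and other partners of Ngfr, 9 of 10 were tested, and 0 passed by edgeR, at an unadjusted p under 0.05, in DESeq2 or in limma-voom. Ntrk3, the receptor of Ntf3, was at 174, 135 and 178 CPM in IL16-/-ApoE-/-, against 145, 258 and 461 CPM in ApoE-/- (-0.83; edgeR adjusted p = 0.385). Ntf3, a neurotrophin that Ngfr also binds, was at 15.5, 14.2 and 14.3 CPM in IL16-/-ApoE-/-, against 9.30, 29.0 and 58.5 CPM in ApoE-/- (-1.14; edgeR adjusted p = 0.394). Both overlapped between the groups, with ApoE-/- 1 the lowest ApoE-/- library. With that library left out, 0 rose and 3 fell, which were Ntf3, Ntrk3 and Maged1, a protein that binds Ngfr, named after its values were seen.

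Since Ngfr is also a neuronal receptor, markers of peripheral neurons stand beside it. Of 15, 14 were tested, with 0 called by edgeR, 7 higher at an unadjusted p under 0.05, 5 called by DESeq2, 0 by limma-voom, 3 by limma-voom with sample weights and 9 by edgeR without ApoE-/- 1. The shares of all genes called higher were 1.14% by edgeR, 6.25% by DESeq2, 1.95% by limma-voom and 9.39% with sample weights. They were 8.87% at an unadjusted p under 0.05 and 13.1% by edgeR without ApoE-/- 1. Their median log2 fold change was 2.15, and they summed to 109 to 204 CPM in IL16-/-ApoE-/- and 59.6 to 65.4 CPM in ApoE-/-. Th, the rate-limiting enzyme of noradrenaline synthesis, was at 12.6, 15.2 and 6.38 CPM in IL16-/-ApoE-/-, against 2.06, 0 and 0.497 CPM in ApoE-/-. Nefm, a neurofilament subunit, was at 4.01, 7.64 and 2.23 CPM in IL16-/-ApoE-/-, against 0.430, 0.129 and 0.447 CPM in ApoE-/- (3.77, SE 0.70; edgeR adjusted p = 0.0735). Gap43, a growth protein of axons, was at 3.43, 5.19 and 2.82 CPM in IL16-/-ApoE-/-, against 1.28, 0.516 and 0.932 CPM in ApoE-/- (2.06, SE 0.47; edgeR adjusted p = 0.113). In all 3 genes the IL16-/-ApoE-/- libraries were above the ApoE-/- libraries. No fold is given for Th, which had no count in ApoE-/- 2. The part of neuronal RNA in the Ngfr result was not tested.

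Oligodendrocytes, melanocytes and the sheath cells of nerves could share transcripts with Schwann cells. Of 9 oligodendrocyte markers, 2 reached the level for testing and 0 passed, and Mog was counted only in IL16-/-ApoE-/- 1, at 0.0922 CPM. Of 8 melanocyte markers 4 were tested and 0 passed. Dct, an enzyme of melanin synthesis that Sox10 controls in melanocytes, was at 0.161, 0.189 and 0 CPM in IL16-/-ApoE-/-, against 0.501, 0 and 0.435 CPM in ApoE-/-. The melanocyte list summed to 19.6 to 21.8 CPM in IL16-/-ApoE-/- and 20.8 to 27.7 CPM in ApoE-/-, nearly all of it Mitf, and the oligodendrocyte list to 13.1 to 20.9 CPM in IL16-/-ApoE-/- and 9.07 to 41.1 CPM in ApoE-/-, nearly all of it Myrf. In both lists 0 passed with all libraries at an unadjusted p under 0.05, in DESeq2 or in limma-voom. Without ApoE-/- 1, 0 melanocyte markers passed and 1 of the 2 oligodendrocyte markers fell, Myrf (-1.18; edgeR adjusted p = 0.0144). Perineurial and endoneurial markers had 12 tested and 0 called by edgeR, with 1 higher and 2 lower at an unadjusted p under 0.05, 1 higher in DESeq2, 0 in limma-voom and 2 lower with sample weights. After leaving out ApoE-/- 1, 1 of them rose, Itgb4 (0.64), and 2 fell, Wif1 (-1.37) and Etv1 (-1.31; edgeR), named after their values were seen. In that comparison 13.1% of all genes rose and 12.8% fell. With all libraries, 8.87% of all genes were higher and 7.03% lower at an unadjusted p under 0.05.

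Sums of skeletal muscle, cardiac muscle and endothelial markers did not overlap between the groups, and those of smooth muscle, fibroblast, macrophage and adipocyte markers did. Endothelial markers summed to 1270 to 1310 CPM in IL16-/-ApoE-/- and 667 to 1150 CPM in ApoE-/-. Fibroblast markers summed to 6480 to 7330 CPM in IL16-/-ApoE-/- and 5960 to 8760 CPM in ApoE-/-. Skeletal muscle markers summed to 17.4 to 293 CPM in IL16-/-ApoE-/- and 4.12 to 9.85 CPM in ApoE-/-, and cardiac markers to 237 to 458 CPM in IL16-/-ApoE-/- and 95.7 to 126 CPM in ApoE-/-. By edgeR, 0 of 8 skeletal and 1 of 8 cardiac markers rose (Tnnt2), with 7 of each higher at an unadjusted p under 0.05 and 6 of each higher in DESeq2. With ApoE-/- 1 left out, 6 skeletal markers rose, and 6 cardiac markers rose and 1 fell. Smooth muscle markers summed to 8960 to 10100 CPM in IL16-/-ApoE-/- and 4450 to 28700 CPM in ApoE-/-, and macrophage markers to 4520 to 6410 CPM in IL16-/-ApoE-/- and 420 to 4980 CPM in ApoE-/-. Among 8 markers each of smooth muscle, endothelium, fibroblasts and macrophages 0 passed by edgeR, with 0, 2, 0 and 0 higher at an unadjusted p under 0.05, 0, 2, 0 and 0 higher in DESeq2 and 0 in limma-voom, and of 8 adipocyte markers 1 rose (Lep). With sample weights, limma-voom called 6 endothelial, 2 macrophage and 7 adipocyte markers higher and 4 smooth muscle and 1 fibroblast marker lower. When ApoE-/- 1 was left out, all 8 smooth muscle markers fell, 6 endothelial and 7 adipocyte markers rose, and 0 fibroblast and 0 macrophage markers passed. Over all genes, 1.14% were called higher by edgeR, 6.25% by DESeq2, 1.95% by limma-voom and 9.39% with sample weights. At an unadjusted p under 0.05, 8.87% were higher, and without ApoE-/- 1, 13.1% rose and 12.8% fell. The part of such tissue in the levels of the myelin genes was not tested.

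**Figure D5:**
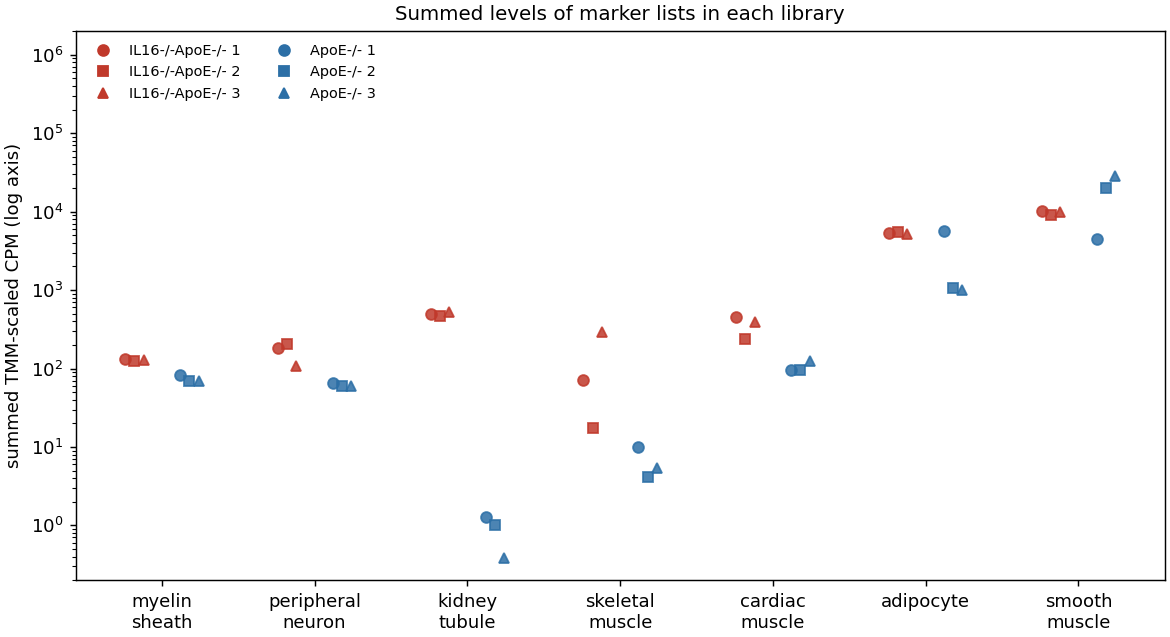
Summed CPM of marker lists in every library on a log axis, IL16-/-ApoE-/- left of ApoE-/-. The myelin sheath sums of 126 to 132 CPM in IL16-/-ApoE-/- lie above the 69.2 to 82.7 CPM of ApoE-/-, and the kidney tubule sums are furthest apart, at 472 to 525 CPM in IL16-/-ApoE-/- and 0.385 to 1.28 CPM in ApoE-/-.

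The genes whose profile over the 6 libraries was nearest to the mean profile of the 7 tested genes were Ccl24, Tpd52-ps, Rpl31, Rpl36al, Naa38 and Rps12, out of 13746 candidates. Likeness was the root mean square difference of centred log2 CPM, and it was 0.075 for the chemokine gene Ccl24 and 0.141 for the ribosomal protein gene Rps12. Their profile was higher in all IL16-/-ApoE-/- libraries and lowest in ApoE-/- 2. Rpl31, for example, was at 275, 288 and 221 CPM in IL16-/-ApoE-/-, against 145, 70.0 and 118 CPM in ApoE-/-, and processed pseudogenes could take part of its reads. The 7 genes lay further from their own mean than these did, with Mbp nearest at 0.290 and Ngfr furthest at 1.09, where the median of all candidates was 0.785. Sox10, Pmp22 and Prx, at 0.745 to 0.793, lay about as far from it as the median candidate.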

How the data were processed

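RNA was sequenced from 6 mouse aorta samples. TRIzol extraction, oligo(dT) capture and strand-marking library synthesis were used, per the labels' protocols. Cutadapt, HISAT2 and StringTie are named, per the submitters' processing notes. No build, annotation, counting program or strand setting is stated in the sources used here. The authors deposited raw read counts per gene, as whole numbers with no normalization, and 0 columns of other samples. Of 55401 Ensembl IDs, 55141 matched a symbol and position in GENCODE M21 (GRCm38).

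The filter filterByExpr of edgeR, with a minimum count of 10 and a minimum total of 15, left 19833 genes. Counts were scaled by TMM and compared by the two-sided quasi-likelihood test without covariates (robust glmQLFit, then glmQLFTest), and p-values were adjusted over all genes by Benjamini-Hochberg (threshold 0.05). CPM are TMM-scaled, and log2 CPM used a prior count of 2, and ratios to Sox10 are of counts within a library. TPM used the median length of a gene's transcripts. Depth of 42861980 to 85568269 counts limits low genes, and floors cover counting error only. The code was tested on simulated data.

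The 8 genes and the gene lists were chosen with earlier results of these data known. Some genes of the myelin sheath, non-myelinating Schwann cell and neurotrophin lists are not reported here and were left out of every list count, median and sum. Named by rule are the 8 genes, Il16, Apoe, up to 4 genes past the threshold per Schwann cell or neuron list (the 2 lowest p where none passed), the first gene of a list, and the 6 genes nearest in profile. Candidates for the last had a mean of at least 1 CPM. Alternatives were other scalings and filters, DESeq2, limma-voom with and without sample weights, no robust moderation, a replicate block, a length trend and each library left out. Cldn19, Ugt8a and L1cam under the alternatives, and the lists without ApoE-/- 1, were added after seeing the data. R 4.3.3, edgeR 4.0.16, limma 3.58.1, DESeq2 1.42.0, Python 3.11.15 and matplotlib 3.10.9 were used.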

Additional observations from a re-analysis of the deposited data

How the results depend on the processing

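The 7 tested genes kept their direction under all 17 alternatives, except Pmp22, at -0.24 to 0.03 with 1 library left out and above 0 without ApoE-/- 3. The number of them called higher, 0 by edgeR, was 2 by DESeq2, 1 by limma-voom with sample weights and 0 to 3 with 1 library left out. Over all genes, the 226 called higher became 1235 by DESeq2, 386 by limma-voom, 1863 by limma-voom with sample weights, 145 with the length trend removed and 0 to 2651 with 1 library left out. The 12 called lower became 462 by DESeq2, 23 by limma-voom, 1488 by limma-voom with sample weights, 25 with the length trend removed and 0 to 2580 with 1 library left out. The 0 counts came without an IL16-/-ApoE-/- library, where edgeR put 1920 to 2042 genes under 0.05 before adjustment. The highest counts came without ApoE-/- 1. Without it the genes called higher were 8 in the myelin sheath list, against 2 with all libraries, 4 of the non-myelinating list, against 1, and 9 of the neuron list, against 0. The share of all genes called higher was 13.1% without it, against 1.14% with all libraries. Deviations of same-numbered samples from their group means had correlations of -0.04, -0.027 and -0.01, and those of differently numbered samples -0.075 to 0.09. With 3 libraries a group, such values cannot settle whether the numbers pair samples. With a replicate block edgeR called 0 genes higher and 0 lower (2327 at an unadjusted p under 0.05), and the adjusted p was 0.188 for Mbp, 0.179 for Cldn19, 0.222 for Ugt8a and 0.212 for L1cam. L1cam was also at 0.0564 with the length trend removed. The cause of these shifts was not tested. With 3 samples a group and ApoE-/- libraries that differ among themselves, edgeR resolved a difference in none of the 7 tested genes with all libraries. Those in Sox10, Mag, Cdh19, Prx and Pmp22 were not resolved at the threshold by any other tool with all libraries either. Pmp2 was below the depth for a test.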

Other observations

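The IL16-/-ApoE-/- libraries shared an order for the neuronal genes and for the lineage genes Sox10 and Ngfr. Of the 14 peripheral neuron markers tested, 10 (71.4%) were highest in IL16-/-ApoE-/- 2 and lowest in IL16-/-ApoE-/- 3, among them Th, Dbh, Nefm and Gap43, where 16.1% of all 19833 genes tested had that order. Of the 8 myelin and lineage genes followed here, Sox10, Ngfr, Prx and Pmp22 had it, the last 2 with a spread of a few percent. In the myelin sheath list it was 2 of 17 genes (11.8%). Mbp and Cdh19 were highest in IL16-/-ApoE-/- 1 instead. In ApoE-/-, Ngfr and most of the neuron markers tested, among them Th, Dbh, Prph and Gap43, were highest in ApoE-/- 1. Sox10 and Cdh19 were highest in ApoE-/- 3. So were the neuron markers Nefm, at 0.430, 0.129 and 0.447 CPM in ApoE-/- 1 to 3, and Phox2a, at 0.155, 0 and 0.298 CPM. Uchl1 was lowest in ApoE-/- 1, at 19.0, 50.6 and 42.8 CPM in ApoE-/- 1 to 3. The order was noticed in these libraries and was not tested.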
